A study of Mus musculus with 96 samples.

Results

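Ifitm1, Ifitm2, Ifitm3 and Ifitm6, 4 of the 23955 genes in the deposited expression table, code for interferon-induced transmembrane proteins. They were followed through 96 single cells of a mouse acute myeloid leukemia, in which each gene's level is given as TPM, transcripts per 1000000 transcripts, a value corrected for transcript length and for the sum over all genes of the cell. The 4 genes were chosen by their measured levels in these same cells, in which they differed between cell states and along the level of Cd34. The levels by state and by Cd34 below are therefore descriptions, and no test was made of them. Cells were sorted into states within each mouse by a level of 1000 TPM or more of H2-Aa, of S100a8 or of Mpo, in that order, and the remaining cells were called rest.

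IFITM proteins are small membrane proteins that hinder enveloped viruses from fusing with the cell's membranes. IFITM1 sits mainly at the cell surface, and IFITM2 and IFITM3 sit mainly in endosomes. Their genes are induced by type I and type II interferon, but stem cells of several tissues, blood-forming stem cells among them, also express them without infection. Ifitm6 is a less studied member known from myeloid cells. Of the state genes, H2-Aa codes for a chain of the class II antigen-presenting complex, which dendritic cells carry at a high level. S100a8 codes for a calcium-binding protein of maturing neutrophils, Mpo codes for myeloperoxidase, made by granulocyte-monocyte progenitors and promyelocytes, and Cd34 codes for a surface protein of stem and progenitor cells.

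The cells were splenocytes enriched for CD117, the c-Kit receptor, from 2 moribund mice of 1 genotype, 48 cells from each. Both mice carried Flt3ITD/ITD, an internal tandem duplication of the receptor Flt3 on both alleles, with Dnmt3afl/- MxCre, which leaves the DNA methyltransferase gene Dnmt3a with 1 null allele and 1 floxed allele. Cre was under the Mx1 promoter, which itself responds to interferon, and the labels do not say whether or when it was induced. No wild-type mouse and no mouse with intact Dnmt3a was among the samples, so no level below is set against normal cells. Each mouse has its own prefix in the deposited column names, which is taken here as 1 capture round on a microfluidic chip. Xist, which is transcribed in female cells, averaged 54.97 TPM over the cells of mouse 1 and 0.04 TPM over those of mouse 2. The Y-linked gene Ddx3y averaged 0.02 and 51.11 TPM, so by these genes mouse 1 was female and mouse 2 male. Mouse, sex and round therefore cannot be told apart. Cells of 1 mouse are not replicates of a condition: values are given as ranges, medians and counts of cells, and no p-value is given. Between 1604 and 6018 genes per cell reached 1 TPM, with a median of 3606 in mouse 1 and 3083 in mouse 2. Kit mRNA reached 100 TPM in 20 cells of mouse 1 and 10 cells of mouse 2.

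The 4 genes lie within 63088 bases of chromosome 7 (GRCm38, GENCODE M21 annotation). Ifitm2 lies at chr7:140954837-140955987 on the minus strand, Ifitm1 at chr7:140967221-140969825 on the plus strand, Ifitm3 at chr7:141009586-141010770 and Ifitm6 at chr7:141015699-141017924, both on the minus strand. The neighbour on the left, Ifitm5, which is known from bone, was above 0 in 1 of 96 cells, and B4galnt4 on the right averaged 0 TPM over the cells of mouse 1 and 0.00354 over those of mouse 2. Gm45717 and Gm17387, the other annotated protein-coding neighbours looked up, had no level under these names in the deposited TPM values. Gm45717 overlaps both Ifitm5 and Ifitm2 on the same strand. The coding sequences of Ifitm1, Ifitm2 and Ifitm3 are alike, with 84.7% of aligned bases identical between Ifitm1 and Ifitm2, 85.6% between Ifitm1 and Ifitm3 and 83.95% between Ifitm2 and Ifitm3. Ifitm6 shared 72.9% to 75.7% with the other 3. The longest identical run between transcripts was 69 bases for Ifitm2 and Ifitm3 and 64 bases for Ifitm1 and Ifitm3. Reads that fell inside such a run had to be divided between the genes by estimation, so a low value of 1 member in a cell with a high level of another is uncertain.

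The promoter windows of the 4 genes are shown because Ifitm1, Ifitm2 and Ifitm3 were mostly high in the same cells by TPM and Ifitm6 was not. Each window runs from 250 bases before to 50 bases after the RefSeq start site (build GRCm38.p6), 5′ to 3′ on the gene's own strand. Capitals mark matches, on either strand, to GAAANNGAA, a shortened core of the interferon-stimulated response element (ISRE), or to TTCNNNGAA, the core of the gamma-activated site (GAS). The windows are chr7:140967826-140968125 (plus strand) for Ifitm1, chr7:140955912-140956211 (minus) for Ifitm2, chr7:141010695-141010994 (minus) for Ifitm3 and chr7:141016843-141017142 (minus) for Ifitm6. The RefSeq start site lies 26 bases inside the GENCODE gene for Ifitm2 and Ifitm3, but 855 bases inside it for Ifitm1 and 1032 bases inside it for Ifitm6. For these last 2 genes GENCODE also has a transcript start near the RefSeq one, 36 and 16 bases away. Promoters of the starts upstream of the window, 1 for Ifitm1 and 2 for Ifitm6, were not searched.
Ifitm1: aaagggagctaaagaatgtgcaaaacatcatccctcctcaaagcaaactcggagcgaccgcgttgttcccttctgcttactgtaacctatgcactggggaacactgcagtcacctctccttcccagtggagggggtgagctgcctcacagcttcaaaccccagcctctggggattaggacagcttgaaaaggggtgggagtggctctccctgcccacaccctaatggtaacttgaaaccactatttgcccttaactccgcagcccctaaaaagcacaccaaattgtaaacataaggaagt
Ifitm2: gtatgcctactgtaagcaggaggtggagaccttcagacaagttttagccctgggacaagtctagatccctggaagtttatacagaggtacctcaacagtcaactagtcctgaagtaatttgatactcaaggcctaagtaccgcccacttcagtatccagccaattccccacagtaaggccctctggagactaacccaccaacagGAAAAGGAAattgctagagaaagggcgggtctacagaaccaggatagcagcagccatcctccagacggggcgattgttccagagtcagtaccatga
Ifitm3: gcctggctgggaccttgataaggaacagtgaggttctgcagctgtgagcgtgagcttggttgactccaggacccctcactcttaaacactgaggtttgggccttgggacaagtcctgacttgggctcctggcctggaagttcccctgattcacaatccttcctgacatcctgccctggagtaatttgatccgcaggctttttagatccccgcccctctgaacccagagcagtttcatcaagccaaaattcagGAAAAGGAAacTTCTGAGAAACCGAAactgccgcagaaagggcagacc
Ifitm6: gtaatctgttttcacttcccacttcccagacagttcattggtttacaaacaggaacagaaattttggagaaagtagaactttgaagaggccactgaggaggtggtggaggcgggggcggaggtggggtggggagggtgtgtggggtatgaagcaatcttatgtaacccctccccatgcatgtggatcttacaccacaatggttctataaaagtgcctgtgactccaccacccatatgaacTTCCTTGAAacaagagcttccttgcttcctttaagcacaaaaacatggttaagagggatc

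The Ifitm2 window held 1 ISRE match, which begins 46 bases before the start site. The Ifitm3 window held 2 ISRE matches, which begin 2 and 19 bases after the start site, and 1 GAS match that overlaps the second of them. The Ifitm6 window held 1 GAS match 10 bases before the start site and no ISRE match. The Ifitm1 window held neither. Of all 32851 mouse promoter windows of this length, 8.56% held the ISRE core and 8.30% the GAS core. A match is a string of letters and not a shown binding site, and a window without one says only that the letters are not in it.

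In mouse 1, 14 cells were H2-Aa-high, 1 was S100a8-high, 13 were Mpo-high and 20 were rest. In mouse 2 these numbers were 20, 10, 12 and 6. As a check of the state, the summed level of 11 class II and conventional dendritic cell markers was 62069 to 100493 TPM in H2-Aa-high cells of mouse 1 and 14.4 to 1184 TPM in its rest cells. In mouse 2 it was 21743 to 116276 TPM in H2-Aa-high and 15.5 to 265.2 TPM in rest cells, and 1 S100a8-high cell had 9712 TPM. The H2-Aa-high cell with the least H2-Aa, cell 68 of mouse 2, also passed the Mpo threshold, with 6732 TPM of H2-Aa and 6730 TPM of Mpo, and had Ifitm1 at 6.91 TPM and Ifitm2 at 0. H2-Aa divided the cells with a wide gap: the lowest level at or above 1000 TPM was 20801 TPM in mouse 1 and 6732 TPM in mouse 2, and the highest level below was 98.3 and 114.5 TPM. For S100a8 in mouse 2 the values on each side were 26570 and 133.1 TPM, and the single such cell of mouse 1 had 1251 TPM. Mpo had no such gap in mouse 1, where cells on each side of the threshold had 1033 and 998.9 TPM, so Mpo-high and rest form a range there rather than separate groups. The summed level of the 4 genes had a median of 9.58 TPM in H2-Aa-high cells, 7358 TPM in Mpo-high cells and 8022 TPM in rest cells of mouse 1. In mouse 2 the medians were 11.1 TPM in H2-Aa-high, 561 TPM in S100a8-high, 5995 TPM in Mpo-high and 13741 TPM in rest cells. In the cell with the highest sum, an Mpo-high cell of mouse 2, the 4 genes made up 2.51% of all TPM.

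A gene is called on in a cell at 100 TPM or more. Ifitm1 was on in nearly every Mpo-high and rest cell and low in every H2-Aa-high cell. In mouse 1 its lowest, median and highest levels were 2.21, 5.06 and 56.7 TPM in the 14 H2-Aa-high cells, 348.7, 4887 and 11472 TPM in the 13 Mpo-high cells, and 2.87, 4275 and 12438 TPM in the 20 rest cells. In mouse 2 they were 0, 5.37 and 15.1 TPM in the 20 H2-Aa-high cells, 0.90, 2.38 and 155.4 TPM in the 10 S100a8-high cells, 462.8, 3184 and 21156 TPM in the 12 Mpo-high cells, and 349.9, 8927 and 15499 TPM in the 6 rest cells. The H2-Aa-high cells did not overlap the Mpo-high cells in either mouse, while Mpo-high and rest overlapped over nearly their whole range. Ifitm1 was chosen by its level in these states. The share of all genes without such an overlap is not given here, so nothing is read from its absence. Mean levels on the log2(TPM + 1) scale were 2.77 ± 1.05 (SD over 14 cells) in H2-Aa-high and 10.78 ± 3.35 (SD over 20 cells) in rest cells of mouse 1, a difference of -8.01. In mouse 2 the same difference was -10.06, and S100a8-high minus rest was -9.67. The added 1 TPM makes such differences smaller than the true fold for low genes.

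Counted at 100 TPM, Ifitm1 was on in 0 of 14 H2-Aa-high cells of mouse 1 (exact Clopper-Pearson 95% interval 0 to 23.2%) and 0 of 20 of mouse 2 (0 to 16.8%). It was on in 13 of 13 and 12 of 12 Mpo-high cells, and in 18 of 20 and 6 of 6 rest cells. In S100a8-high cells of mouse 2 it was on in 2 of 10 (2.52% to 55.6%). These intervals cover the counting of cells only. No cell of either mouse lay between 56.7 and 148.4 TPM, so the count of Ifitm1-positive cells would be the same at any cutoff in that range.

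**Figure D1:**
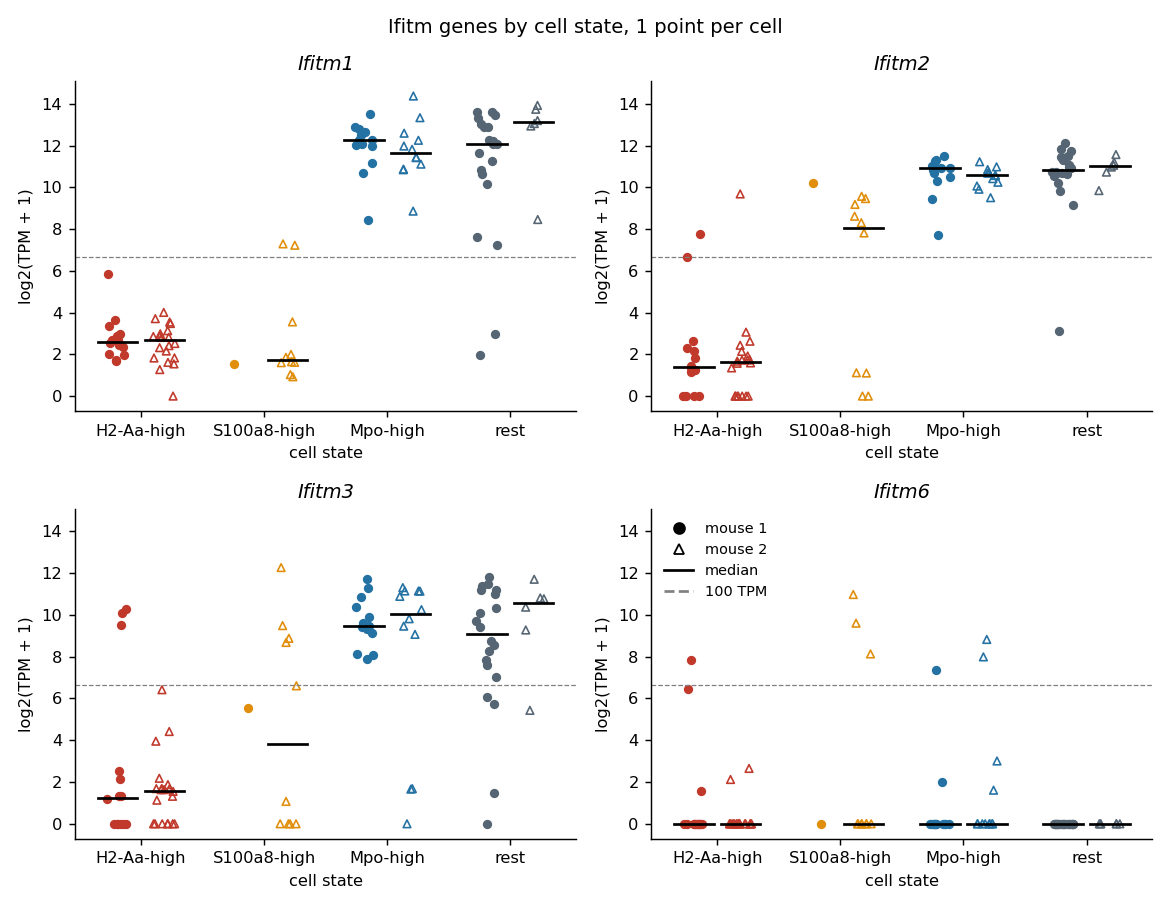
Level of Ifitm1, Ifitm2, Ifitm3 and Ifitm6 in log2(TPM + 1) on the vertical axis by cell state on the horizontal axis, 1 point per cell, filled circles for mouse 1 and open triangles for mouse 2. Black bars are medians of groups of at least 3 cells and the dashed line is 100 TPM; every H2-Aa-high point of Ifitm1 lies under the line and every Mpo-high point above it.

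Ifitm2 followed the same division but remained on in part of the S100a8-high cells. In mouse 1 its lowest, median and highest levels were 0, 1.65 and 212.8 TPM in H2-Aa-high cells, 208.8, 1925 and 2927 TPM in Mpo-high cells, and 7.54, 1841 and 4521 TPM in rest cells. In mouse 2 they were 0, 2.10 and 819.8 TPM in H2-Aa-high, 0, 269.4 and 757.0 TPM in S100a8-high, 723.5, 1518 and 2388 TPM in Mpo-high, and 916.1, 2063 and 3032 TPM in rest cells. Mpo-high and rest cells overlapped in both mice, and the S100a8-high range of mouse 2 met the lower end of the Mpo-high range. Ifitm2 reached 100 TPM in 1 of 14 and 1 of 20 H2-Aa-high cells, in 6 of 10 S100a8-high cells of mouse 2, in all 25 Mpo-high cells and in 25 of 26 rest cells. H2-Aa-high minus rest was -8.50 in mouse 1 and -9.23 in mouse 2 on the log2 scale, and S100a8-high minus rest was -5.38 in mouse 2. Over the 12 Mpo-high cells of mouse 2 the SD was 0.48 on the log2 scale for Ifitm2, against 1.38 for Ifitm1 and 4.31 for Ifitm3.

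Ifitm3 was lower on average in H2-Aa-high than in rest cells of both mice, and the ranges overlapped. In mouse 1 its lowest, median and highest levels were 0, 1.38 and 1259 TPM in H2-Aa-high, 234.2, 702.9 and 3327 TPM in Mpo-high, and 0, 561.5 and 3619 TPM in rest cells. In mouse 2 they were 0, 2.02 and 84.6 TPM in H2-Aa-high, 0, 48.8 and 4936 TPM in S100a8-high, 0, 1062 and 2539 TPM in Mpo-high, and 42.2, 1540 and 3347 TPM in rest cells. The states overlapped in mouse 1, where 3 of 14 H2-Aa-high cells held 725.0, 1087 and 1259 TPM, and no H2-Aa-high cell of mouse 2 reached 100 TPM. Ifitm3 was at 100 TPM or more in 13 of 13 Mpo-high and 16 of 20 rest cells of mouse 1, and in 9 of 12 Mpo-high and 5 of 6 rest cells of mouse 2. H2-Aa-high minus rest was -5.71 in mouse 1 and -8.17 in mouse 2, and S100a8-high minus rest was -5.03 in mouse 2.

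Ifitm6 had another pattern. It was listed at 0 in 82 of 96 cells, in all 26 rest cells among them, and reached 100 TPM in 7 cells. Levels of 100 TPM or more were found in S100a8-high cells of mouse 2 (280.0, 778.3 and 2019 TPM), in Mpo-high cells of mouse 2 (253.7 and 453.2 TPM), in 1 Mpo-high cell of mouse 1 (166.0 TPM) and in 1 H2-Aa-high cell of mouse 1 (226.0 TPM). S100a8-high minus rest was 2.87 in mouse 2, a difference that rests on 3 of 10 cells. The Ifitm6-positive H2-Aa-high cell also held the highest Ifitm3 level (1259 TPM) and the highest Ifitm1 level (56.7 TPM) of its state in mouse 1. Of the other Ifitm genes in the table, Ifitm5, Ifitm7 and Ifitm10, the highest level in any cell was 12.2 TPM.

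Across the 8008 genes that reached 1 TPM in at least 5 cells of each mouse, 25.5% were lower by 1 or more on the log2 scale in H2-Aa-high than in rest cells of both mice, as were 3 of the 4 Ifitm genes. In the second deposited table, in RPKM, Ifitm1 alone was lower by 1 or more in both mice: mouse 1 gave -0.66 for Ifitm2 and -0.21 for Ifitm3. In S100a8-high cells of mouse 2, 43.7% of genes were lower than in rest by 1 or more, again with 3 of the 4. In Mpo-high cells 10.1% were higher by 1 or more in both mice, with 0 of the 4. These contrasts chose the genes, so nothing is read from the counts. The number of genes detected also differed between states: its median in mouse 1 was 2922 in H2-Aa-high, 4463 in Mpo-high and 3588 in rest cells, and in mouse 2 it was 2581, 4041 and 4252, with 2821 in S100a8-high cells. With a linear fit on the number of genes removed, Ifitm1 differed between H2-Aa-high and rest by -5.28 in mouse 1 and -5.81 in mouse 2. Genes of the marker lists of other cell types also differed between the states, and their part in the Ifitm levels was not tested. The summed T and NK cell markers were at 0 to 28.5 TPM in H2-Aa-high cells of mouse 1 and at 141.2 to 5014 TPM in Mpo-high cells, mainly from Nkg7, while Cd3e, Cd3g, Ncr1 and Gzma were at 0 in every cell. The B cell markers were at 0 to 0.93 TPM and 0 to 888.0 TPM in the same groups, mainly from Cd79b, with Ms4a1, Ebf1 and Pax5 at 0 in every cell. Of the erythroid markers only the globin gene Hbb-bt was measured, and H2-Aa-high minus rest was -6.11 in mouse 1 and -5.64 in mouse 2. The summed erythroid markers had a median of 1.01 TPM in H2-Aa-high and 708.6 TPM in rest cells of mouse 1, and of 0.635 and 197.1 TPM in mouse 2. Of 7 measured granulocyte-monocyte progenitor markers, which include Mpo, 2 were lower by 1 or more in H2-Aa-high than in rest cells of both mice, namely Prtn3 (-4.54 and -5.70) and Ctsg (-4.66 and -3.72), both coding for proteases of the primary granules.

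By TPM, Ifitm1, Ifitm2 and Ifitm3 were mostly on together in the same cells. In mouse 1 all 31 cells with Ifitm1 at 100 TPM or more also had Ifitm2 there, and 28 of them had Ifitm3. In mouse 2, 19 of 20 Ifitm1-positive cells had Ifitm2 and 16 had Ifitm3. The RPKM table bore out only part of this. Of the cells with Ifitm2 on by TPM, 19 of 34 in mouse 1 and 9 of 25 in mouse 2 were above its floor value there. For Ifitm3 they were 7 of 32 and 7 of 18. How far reads divided between these genes by estimation raised their TPM was not tested, and the share of all genes on in these cells is not given here. In mouse 1, 12 of 13 Mpo-high cells and 15 of 20 rest cells had exactly the combination Ifitm1, Ifitm2 and Ifitm3, and the remaining Mpo-high cell had all 4. None of the 4 reached 100 TPM in 10 of 14 H2-Aa-high cells of mouse 1 and in 19 of 20 of mouse 2. Where Ifitm1 was on it was usually the leading member: it was the highest of the 4 in 25 of 31 cells of mouse 1 and 15 of 20 of mouse 2, with a median of 61.4% and 60.1% of their summed TPM. Ifitm2 followed with 22.04% and 21.79%, and Ifitm3 with 13.6% and 12.8%.

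**Figure D2:**
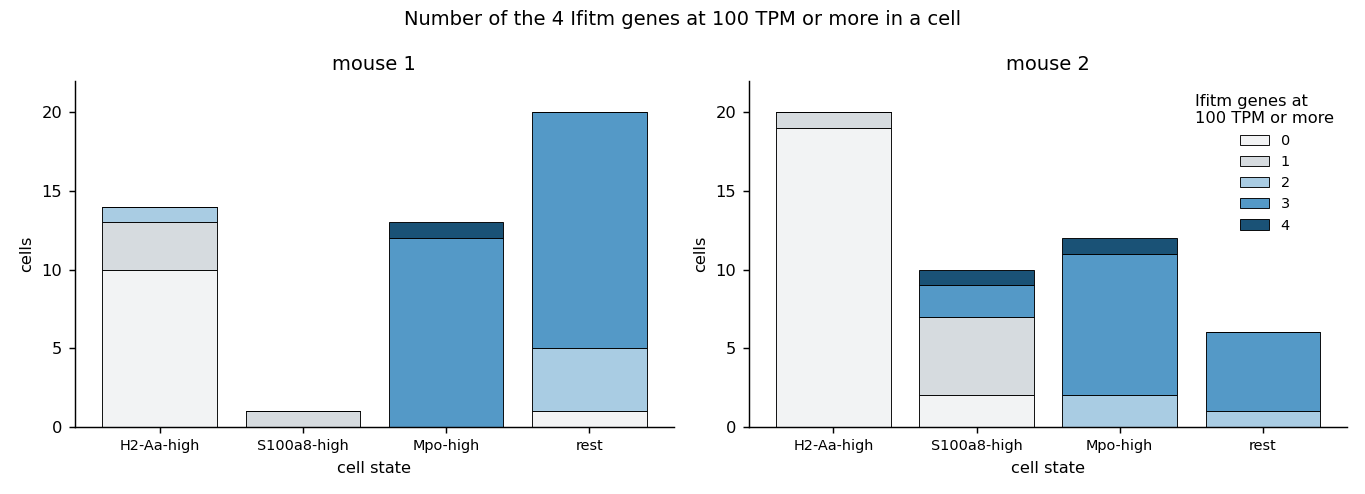
Number of cells on the vertical axis by cell state on the horizontal axis, left mouse 1 and right mouse 2, with bars divided by how many of the 4 Ifitm genes reached 100 TPM in a cell. H2-Aa-high bars are mostly the lightest shade (0 members; 10 of 14 and 19 of 20 cells), and most Mpo-high and rest cells have 3.

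Rank correlations over cells give the same order. Spearman's rho over the 48 cells of a mouse was 0.71 in mouse 1 and 0.73 in mouse 2 for Ifitm1 with Ifitm2, 0.59 and 0.67 for Ifitm1 with Ifitm3, and 0.52 and 0.54 for Ifitm2 with Ifitm3. These are descriptions over cells that share 1 animal, 1 chip and the same total of TPM. Much of the relation in mouse 1 lay between the H2-Aa-high cells and the others: over its 34 other cells the values were 0.35, 0.28 and 0.21. Over the 28 other cells of mouse 2 they were 0.83, 0.61 and 0.54. Ifitm6 is listed at 0 in most cells and gave values from -0.17 to 0.22 with the other members, which are not read as a relation.

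By TPM, Ifitm2 was on more often than Ifitm1 in S100a8-high cells. Of the 11 such cells of both mice, 7 had Ifitm2 at 100 TPM or more, 4 had Ifitm3, 3 had Ifitm6 and 2 had Ifitm1. The 3 cells with S100a8 and Mpo both at 1000 TPM or more had Ifitm1 at 1.87 to 2.99 TPM and Ifitm2 at 315.0 to 1184 TPM. Of the 8 with S100a8 alone, 4 had Ifitm2, 4 had Ifitm3 and 3 had Ifitm6 at 100 TPM or more. Both Ifitm1-positive S100a8-high cells lay just above the gap, at 148.4 and 155.4 TPM. The first of them had Ifitm2 at 0, Ifitm3 at 4936 TPM and Ifitm6 at 2019 TPM with 1768 genes detected, and the second had all 4 members on. In S100a8-high cells of mouse 2 Ifitm2 was thus more often on than Ifitm1 (6 against 2 of 10 cells), which is a count of cells from 1 animal. Of all 25 cells of mouse 2 with Ifitm2 on by TPM, 9 were above its RPKM floor. How many of these 9 were S100a8-high is not given here.

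**Figure D3:**
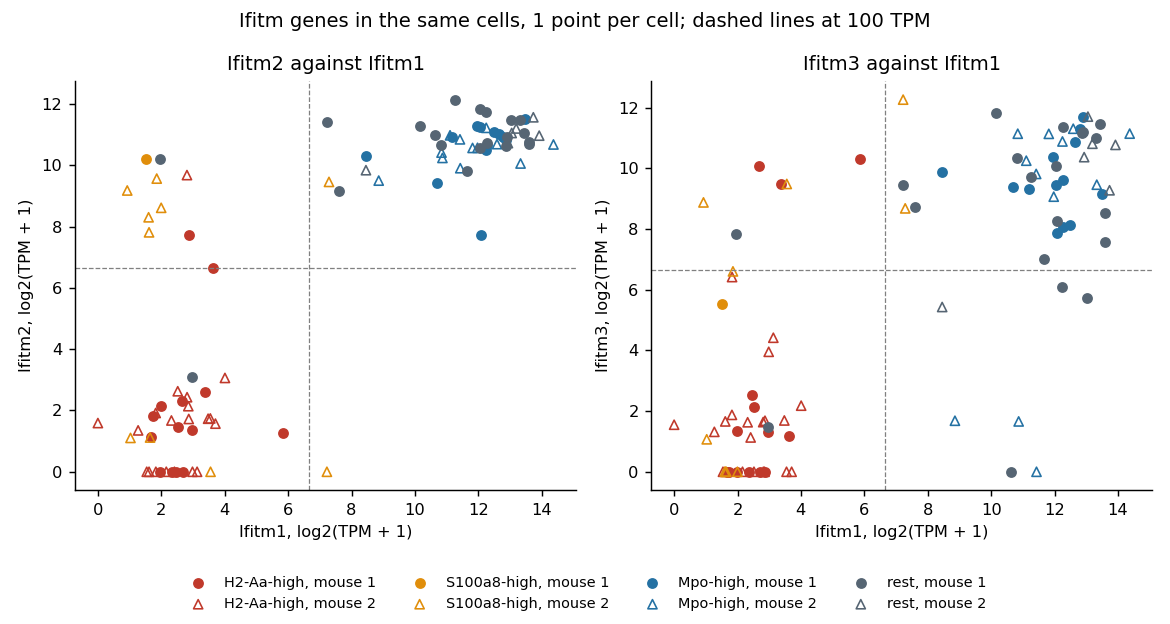
Ifitm2 (left) and Ifitm3 (right) against Ifitm1 in the same cells, all in log2(TPM + 1), coloured by cell state, filled circles for mouse 1 and open triangles for mouse 2; dashed lines mark 100 TPM. Most Mpo-high and rest cells lie at the upper right, and the upper left of the left panel holds 9 cells with Ifitm2 at 100 TPM or more and Ifitm1 at 6.28 TPM or less, of which 6 are S100a8-high, 2 H2-Aa-high and 1 rest.

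Within the Mpo-high cells Ifitm1 was lower where Elane was higher. Elane codes for neutrophil elastase, which is stored in the primary granules together with myeloperoxidase, and it was picked for this description after its values were seen. Spearman's rho of Ifitm1 with Elane was -0.80 over 13 cells of mouse 1 and -0.80 over 12 cells of mouse 2, and with Mpo itself it was -0.69 and -0.45. In mouse 1 the 3 Mpo-high cells with the least Elane (0, 2.28 and 7.24 TPM) had Ifitm1 at 11472, 4887 and 7096 TPM. The 3 with the most Elane (3358, 15076 and 16769 TPM) had Ifitm1 at 4225, 2320 and 348.7 TPM. In mouse 2 the 3 with the least Elane had Ifitm1 at 10306, 21156 and 4865 TPM, and the 3 with the most had 2758, 1831 and 1867 TPM. Ifitm2 and Ifitm3 ran less with Elane in these cells, at -0.18 and 0.07 in mouse 1 and -0.42 and -0.36 in mouse 2. Ifitm6 had 0.52 and 0.50 with Elane, but was at 0 in 11 of the 13 and 8 of the 12 cells. The share of all genes with a rho as low with Elane as that of Ifitm1 is not given here. The number of genes detected had a rho of -0.43 with Ifitm1 in the Mpo-high cells of mouse 1 and 0.24 in those of mouse 2, and its part in the relation was not tested. Mpo and Elane belong to the state rule or run with it, so this is a description within a chosen range.

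Few cells outside the H2-Aa-high and S100a8-high states were low in Ifitm1, and there were 2, both rest cells of mouse 1. Cell 19 had all 4 members under 10 TPM (6.87, 7.54, 1.81 and 0 TPM), with Kit at 176.1 TPM and a summed level of 7403 TPM of mast cell and basophil markers. Cell 16 had Ifitm1 at 2.87 TPM but Ifitm2 at 1180 TPM and Ifitm3 at 227.7 TPM, with 10279 TPM of erythroid markers. Another rest cell of mouse 1, cell 35, had Ifitm1 at 149.0 TPM beside Ifitm2 at 2723 TPM, with 23439 TPM of megakaryocyte markers, the highest sum of that list in any rest cell. The rest state was thus not of 1 kind. Over the 20 rest cells of mouse 1 the sums ran from 0 to 7403 TPM for mast cell and basophil markers, 0 to 10279 TPM for erythroid and 0 to 23439 TPM for megakaryocyte markers, with medians of 1.82, 708.6 and 0.25 TPM, and their part in the low Ifitm1 levels was not tested.

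The cells without Ifitm1 still had small values of it. Of the 45 cells under 100 TPM, 44 had a value above 0, with a median of 4.33 TPM over all 45. Their mean was 0.153% of the mean of Ifitm1-positive cells in mouse 1 and 0.0843% in mouse 2. The source of these low values was not tested, and no level is read from them.

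Ifitm1 followed Cd34 most closely of the 4 members. Of the 27 cells of mouse 1 with Cd34 at 100 TPM or more, all had Ifitm1 at 100 TPM or more, with a lowest, median and highest level of 149.0, 4887 and 12438 TPM. Of the 21 cells with less Cd34, 4 did, and the levels were 1.87, 5.49 and 7484 TPM. In mouse 2 all 14 Cd34-high cells had Ifitm1 on (349.9, 4443 and 15499 TPM), against 6 of 34 Cd34-low cells (0, 5.37 and 21156 TPM). No cell of either mouse had Cd34 without Ifitm1. This was not particular to Ifitm1: Ifitm2 was also on in all 27 and all 14 Cd34-high cells. It was on in 7 of 21 and 11 of 34 Cd34-low cells. The share of all genes on in every Cd34-high cell is not given here. Ifitm1 without Cd34 was found in 4 cells of mouse 1 and 6 of mouse 2: among these were 4 Mpo-high, 4 rest and 2 S100a8-high cells.

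**Figure D4:**
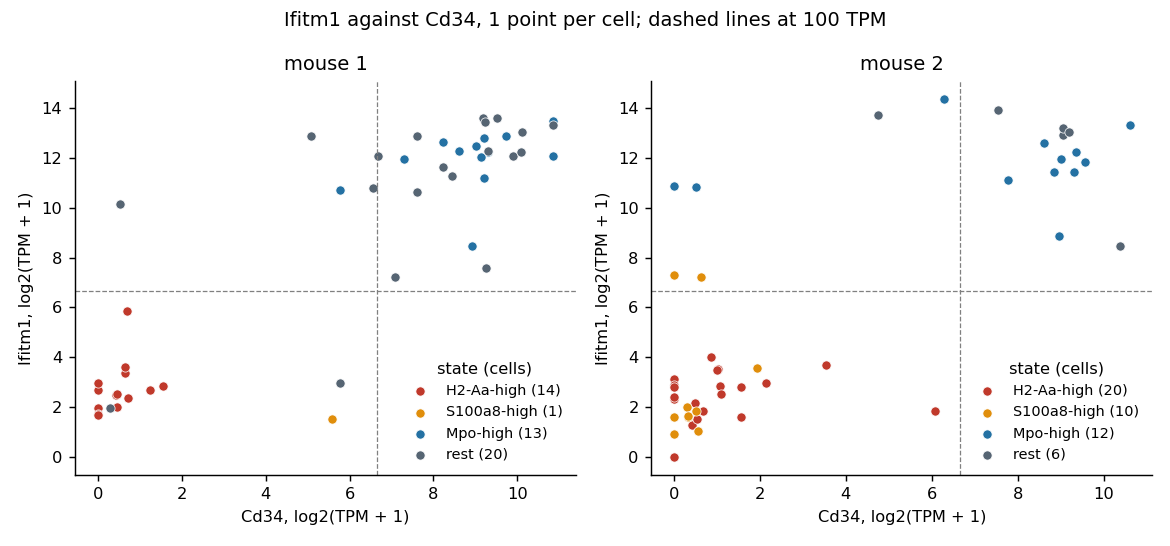
Ifitm1 on the vertical axis against Cd34 on the horizontal axis, both in log2(TPM + 1), 1 point per cell coloured by state, mouse 1 left and mouse 2 right; dashed lines mark 100 TPM. The lower right corner, with Cd34 and without Ifitm1, is empty in both mice, and the upper left holds 4 and 6 cells.

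On the log2 scale Ifitm1 was higher in Cd34-high than in Cd34-low cells by 7.63 in mouse 1 and 8.11 in mouse 2. Ifitm2 was higher by 6.36 and 6.72 and Ifitm3 by 4.40 and 5.49, and Ifitm6 differed by -0.41 and -0.34. Over all measured genes 30.2% were higher by 1 or more in both mice, as were 3 of the 4 members; this contrast too chose the genes, and nothing is read from the count. Markers of other cells were also higher by 1 or more in Cd34-high cells of both mice, among them Hbb-bt (4.2 and 3.74) and 5 of the 7 granulocyte-monocyte progenitor markers, and their part in the Ifitm levels was not tested. No H2-Aa-high cell had Cd34 at 100 TPM, so the comparison partly repeats that of the states. Among cells with H2-Aa below 1000 TPM, Ifitm1 was higher in the Cd34-high cells by 4.62 in mouse 1 (27 against 7 cells) and 6.27 in mouse 2 (14 against 14). Ifitm2 differed by 1.48 and 3.58 and Ifitm3 by 0.74 and 3.04. Of the 14 Cd34-low cells of mouse 2 in this comparison, 10 were S100a8-high, so it too partly repeats that of the states. Within the rest cells of mouse 1, 15 Cd34-high against 5 Cd34-low, the differences were 4.04 for Ifitm1, 1.81 for Ifitm2 and -0.12 for Ifitm3. Of these 5 Cd34-low cells, 3 had Ifitm1 on. Within the Mpo-high cells of mouse 2, 9 Cd34-high against 3 Cd34-low, Ifitm1 differed by -0.38 and was on in all. The 1 Cd34-low rest cell of mouse 2 had Ifitm1 at 13628 TPM.

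Spearman's rho with Cd34 over 48 cells was 0.82 in mouse 1 and 0.69 in mouse 2 for Ifitm1, 0.65 and 0.52 for Ifitm2, 0.40 and 0.49 for Ifitm3, and -0.16 and -0.02 for Ifitm6. Among cells with H2-Aa below 1000 TPM it was 0.59 and 0.64 for Ifitm1, 0.18 and 0.56 for Ifitm2, and -0.02 and 0.45 for Ifitm3. Within the Mpo-high state the values for Ifitm1 were 0.44 over 13 cells and 0.37 over 12. In the rest state they were 0.60 over 20 cells of mouse 1 and -0.89 over the 6 of mouse 2, where the cell with the most Cd34 (1330 TPM) had the least Ifitm1 (349.9 TPM). Over the cells with both genes at 100 TPM or more, rho was 0.31 over 12 Mpo-high and 0.47 over 15 rest cells of mouse 1, and 0.45 over 9 Mpo-high and -0.90 over 5 rest cells of mouse 2. Taken over all such cells of a mouse, it was 0.45 over 27 cells of mouse 1 and -0.05 over 14 cells of mouse 2. The direction was thus not the same in every state and mouse, and the value of -0.90 rests on 5 cells.

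Between the mice, 3 members were lower in mouse 2 over all 48 cells. Mouse 2 minus mouse 1 was -2.43 for Ifitm1 (mean 8.57 ± 4.65 in mouse 1 and 6.14 ± 4.86 in mouse 2, SD over 48 cells), -2.24 for Ifitm2 and -2.17 for Ifitm3, and 0.62 for Ifitm6. Of all measured genes 15.3% were lower by 1 or more. The states were differently represented: H2-Aa-high and S100a8-high cells together were 15 of the 48 cells of mouse 1 and 30 of the 48 of mouse 2. Within a state the direction was not the same. Ifitm1 differed by -0.29 in H2-Aa-high, -0.20 in Mpo-high and 1.76 in rest cells, Ifitm2 by -0.37, -0.10 and 0.36, and Ifitm3 by -1.18, -1.50 and 1.28. With 1 mouse on each side, of different sex and capture round, the difference between mice has no replicate.

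Of 4058 genes that reached 10 TPM in at least 10 cells of each mouse, those whose levels ran most like each member were ranked by the smaller of the rho values of the 2 mice. For Ifitm1 these were Socs2, a suppressor of cytokine signalling (0.76 and 0.78), Ifitm2 (0.71 and 0.73), Cd34 (0.82 and 0.69), Muc13, a cell-surface mucin (0.69 and 0.68), and H2afy, coding for the histone macroH2A (0.70 and 0.66). Socs2, Cd34 and Muc13 reached 100 TPM in no H2-Aa-high cell of either mouse, while H2afy did in all 34. For Ifitm2 they were Ifitm1, Gpr56, an adhesion receptor of stem cells (0.69 and 0.64), Fam3c (0.64 and 0.63), Socs2 (0.62 and 0.63) and Plscr3 (0.59 and 0.59). For Ifitm3 they were Ifitm1, Ifitm2, Gimap9 (0.50 and 0.61), Tmem176b (0.48 and 0.56) and 1700037H04Rik (0.51 and 0.48). Cd34 stood at place 33 for Ifitm2 and at place 27 for Ifitm3. For Ifitm6, at 0 in most cells, the closest was Fcer1g, a chain of the Fc receptors, at 0.40 and 0.37, too sparse to be read. Within cells with H2-Aa below 1000 TPM, Socs2 had 0.48 and 0.84 with Ifitm1.

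The interferon targets as a list were lower in H2-Aa-high cells about as often as all measured genes were, and genes of interferon signalling were more often higher than lower there. All 10 interferon genes looked up were listed at 0 in every cell. Of 21 measured interferon targets, 4 were lower by 1 or more in H2-Aa-high than in rest cells of both mice, namely Isg20, Igtp, Oas1a and Ddx58, and 2 were higher, Psmb8 and Psmb9, which code for subunits of the immunoproteasome. Over all measured genes 25.5% were lower and 5.36% higher in both mice. The median difference of the targets was 0.04 in mouse 1 and -0.64 in mouse 2, against -0.65 and -0.85 over all measured genes. Of 11 measured genes of interferon signalling, 6 were higher in both mice (Jak2, Tyk2, Stat2, Irf7, Irf8 and Irf9) and Jak1 was lower. Irf8, a transcription factor that dendritic cells need, differed by 9.04 and 8.28. Among 5 measured receptor genes, Ifngr2, coding for a chain of the interferon gamma receptor, was higher in both mice (4.70 and 3.0). The median difference was 1.35 and 1.69 for the signalling genes and 0.07 and -0.60 for the receptor genes.

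Ly6e, another membrane protein gene induced by interferon, had the highest mean of the target list (1695 TPM in mouse 1 and 1603 TPM in mouse 2). It differed between H2-Aa-high and rest cells by 0.28 and 0.49, in contrast to -8.01 and -10.06 for Ifitm1. In S100a8-high cells of mouse 2 Ly6e minus rest was -6.78, beside -9.67 for Ifitm1, and 13 of the 21 targets were lower there by 1 or more, as were 43.7% of all measured genes. In Cd34-high against Cd34-low cells 2 of the 21 targets, Oas1a and Irgm1, were higher by 1 or more in both mice and Trim30a was lower, where 30.2% of all measured genes were higher in both and 2.51% lower. The median rho of the 21 targets with Ifitm1 was 0.01 in mouse 1 and 0.06 in mouse 2, against 0.12 and 0.17 over all measured genes. Of the 30 targets with a promoter window, 19 held the shortened ISRE core.

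Most stem and early progenitor genes were lower in H2-Aa-high cells. Of 16 measured, 11 were lower by 1 or more in H2-Aa-high than in rest cells of both mice and 0 were higher, with a median difference of -3.38 and -3.58, where 25.5% of all measured genes were lower and 5.36% higher. Gpr56 differed by -8.41 and -8.83, Cd34 by -7.07 and -7.23, Cd27 by -6.56 and -5.01 and Myb, a transcription factor of progenitors, by -6.28 and -7.85. The median rho of the 16 genes with Ifitm1 was 0.43 in mouse 1 and 0.50 in mouse 2. Over all measured genes it was 0.12 and 0.17. The 9 housekeeping genes, looked up as a reference, had a median rho with Ifitm1 of 0.36 and 0.39, so the rho of the stem list does not set it apart from them. Of these 9, 3 were lower by 1 or more in H2-Aa-high than in rest cells of both mice (Tubb5, Hprt and Tbp) and Actb was higher, with a median difference of -0.94 and -1.58. In S100a8-high cells of mouse 2, 13 of the 16 stem and early progenitor genes and 5 of the 9 housekeeping genes were lower than in rest by 1 or more, as were 43.7% of all measured genes. The list holds Cd34, by which the Ifitm genes were chosen, and was drawn up with earlier results of these cells known, so its direction is not independent of the choice.

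**Figure D5:**
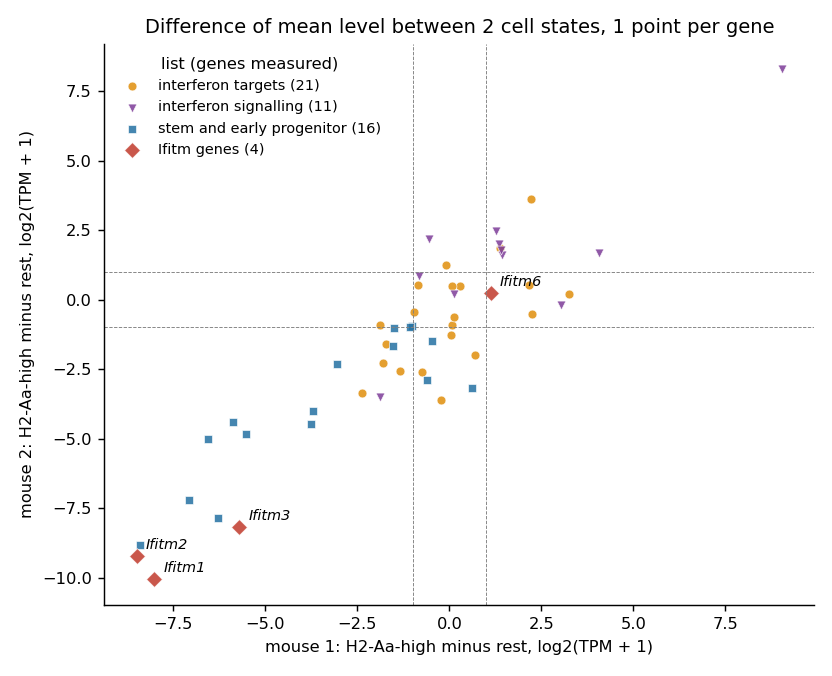
Difference of mean log2(TPM + 1) between H2-Aa-high and rest cells, mouse 1 on the horizontal and mouse 2 on the vertical axis, 1 point per measured gene of 3 lists and 1 diamond per Ifitm gene; dashed lines mark differences of 1. Ifitm1, Ifitm2 and Ifitm3 lie at the lower left with stem and early progenitor genes. The interferon targets lie around the middle, between -2.36 and 3.26 in mouse 1 and between -3.60 and 3.61 in mouse 2.

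Genes coding for proteins that bind or modify IFITM proteins were split. Of 8 measured, 3 were lower by 1 or more in H2-Aa-high than in rest cells of both mice and 1 was higher. Over all measured genes 25.5% were lower and 5.36% higher. The median difference was -1.31 and -0.56, against -0.65 and -0.85 over all measured genes. In Cd34-high cells 3 of the 8 were higher in both mice, as were 30.2% of all measured genes. Nedd4, a ubiquitin ligase that marks IFITM3 for degradation, differed between H2-Aa-high and rest cells by -5.93 in mouse 1 and -5.32 in mouse 2, and was higher in Cd34-high cells (4.09 and 4.05). Zdhhc20, a palmitoyltransferase that acts on IFITM3, differed between H2-Aa-high and rest cells by -2.46 and -2.58, and Vapa, a membrane-contact protein, by -2.46 and -2.19. Cd9, a tetraspanin, was higher in H2-Aa-high cells (2.80 and 2.43). Cd81, another tetraspanin, differed by -0.999 and 0.64.

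A second deposited table gives the same cells as RPKM, read counts scaled by transcript length and library size, with a floor value for each gene. Ifitm1 was above its floor in 30 cells of mouse 1 and 14 of mouse 2, and 29 and 14 of these had 100 TPM or more. Ifitm2 was above its floor in 19 and 9 cells, Ifitm3 in 7 and 7, and Ifitm6 in 0 and 1, all of them cells with 100 TPM or more. Fewer cells were on in that table than by TPM, for Ifitm3 7 against 32 in mouse 1, and no cell above the floor was low by TPM except 1 for Ifitm1. Spearman's rho between the tables was 0.89 and 0.78 for Ifitm1, 0.55 and 0.53 for Ifitm2 and 0.39 and 0.53 for Ifitm3.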

How the data were processed

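Each of 96 single-cell libraries (C1 chip, SMARTer cDNA, Nextera XT) was 1 cell, 48 per mouse. The deposited TPM values of 23955 gene symbols have the same sum in every cell, so they keep no depth. The submitters' processing notes name RSEM, Bowtie2 and TopHat2 with the builds mm10 and mm9, with no role or version. The deposited RPKM table holds 9310 genes with a floor per gene; its deposited name carries AltAnalyze, and the settings the authors used are not given in the sources used here. Cells were assigned to mice by their labels, and all columns matched a label.

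Levels were put on the log2(TPM + 1) scale, and differences are of group means. Groups under 3 cells got no difference. Measured genes are those that 5 or more cells of each mouse held at 1 TPM. No test was run, since each mouse is 1 animal; functions were tested on simulated data. The members and all gene lists were chosen with earlier results of these data known. Named were the 4 members, the state genes and Cd34. To these came up to 4 genes of a list by mean TPM plus those past a difference of 1 in both mice. The 5 genes most like each member and neighbours in the genome were also named. Elane was added after its values were seen, and Xist and Ddx3y were added to tell the sex of the mice. The text names only some of the genes this rule allows. Of 194 list entries, 191 were in the table. No doublet caller was run: cells had been scored by eye on the chip, per the labels' protocols. Python 3.11.15, pandas 2.3.3, scipy 1.17.1 and Biopython 1.88 were used. Alternatives were other pseudocounts, thresholds, cells and scalings and the RPKM table.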

Additional observations from a re-analysis of the deposited data

Results flagged for a closer look

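In the 10 S100a8-high cells of mouse 2, 1 cell stood far from the others in 2 members: the highest Ifitm3 level was 4936 TPM and the highest Ifitm6 level was 2019 TPM, both in the same cell, with 1768 genes detected, so they are not separate outliers. Among normally distributed values, gaps of this size turn up by chance in about 1 group of 20. Ifitm6 was at 0 in 7 of the 10 cells, so that rate need not hold here. In all, 7 gene and state groups were looked at. Ifitm3 differed between Mpo-high and rest cells by 1.19 in mouse 1 and by -1.60 in mouse 2 on the log2(TPM + 1) scale, with opposite directions in the mice. That difference between the mice was not tested, and the SD over cells of the Mpo-high state was 1.21 and 4.31.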

How the results depend on the processing

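Of 224 recomputed differences, 17 changed sign: 10 whose reported size was 1 or more, and 7 whose reported size was under 1. Of these 7, 4 were Mpo-high minus rest of Ifitm2 in mouse 1, which went from 0.04 to -0.0085 with a pseudocount of 10 TPM, -0.18 with a threshold of 3000 TPM, -0.61 with centring and -2.16 with detected genes removed. The other 3 were of Ifitm6, at 0 in most cells: H2-Aa-high minus rest in mouse 2 became -0.092 with detected genes removed, and Cd34-high minus Cd34-low became 0.35 in mouse 1 among cells with H2-Aa below 1000 TPM and 0.063 in mouse 2 with detected genes removed. H2-Aa-high minus rest remained negative for Ifitm1, Ifitm2 and Ifitm3 under every alternative run. With the number of detected genes removed it was -5.28 and -5.81 for Ifitm1 (mouse 1, then mouse 2), -5.90 and -4.98 for Ifitm2, and -5.53 for Ifitm3 in mouse 2. In the RPKM table it was -2.85 and -4.86 for Ifitm1, -0.66 and -1.14 for Ifitm2, and -0.21 and -1.84 for Ifitm3. In mouse 2, centring each cell gave -7.98, -7.15 and -6.09 for these 3 and 2.32 for Ifitm6, and a pseudocount of 10 TPM gave -7.03 for Ifitm2 and -6.02 for Ifitm3. S100a8-high minus rest was -6.54 for Ifitm1 and -2.24 for Ifitm2 with detected genes removed, and -4.86 and -0.93 by RPKM.

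Mpo-high minus rest depended on the setting. In mouse 1 Ifitm1 changed to -0.42 with a state threshold of 3000 TPM and to -1.16 with detected genes removed, which also gave -0.42 for Ifitm3. In mouse 2 Ifitm2 was -1.65 with detected genes removed and -1.03 with centring. Cd34-high minus Cd34-low in mouse 1 was 4.62 for Ifitm1 and 1.48 for Ifitm2 among cells with H2-Aa below 1000 TPM, and 4.04, 1.81 and -0.12 for Ifitm1, Ifitm2 and Ifitm3 among rest cells. Detected genes removed gave 3.996 and 2.92 for Ifitm1 and Ifitm2, and RPKM gave 2.56, 1.13 and 0.21 for the 3. In mouse 2 Ifitm2 was 3.58 among cells with H2-Aa below 1000 TPM, detected genes removed gave 2.86 and 1.48, and RPKM gave 2.78 and 0.36 for Ifitm1 and Ifitm2. Mouse 2 minus mouse 1 changed sign among rest cells (1.76, 0.36 and 1.28 for Ifitm1, Ifitm2 and Ifitm3) and without H2-Aa-high and S100a8-high cells (0.77 for Ifitm1 and 0.066 for Ifitm2), and was 0.42 for Ifitm3 by RPKM. These causes were not tested beyond the settings themselves.

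With no filter on low values, genes past the difference of 1 in both mice were 8.86% lower and 1.89% higher in H2-Aa-high cells, 3.48% higher in Mpo-high cells, and 10.2% higher and 0.864% lower in Cd34-high cells; 16.7% were lower in S100a8-high cells and 5.33% lower in mouse 2. The last was 23.7% among genes at 10 TPM in 10 cells of each mouse. The rest cells of mouse 2, with 1 Cd34-low cell, and the S100a8-high state of mouse 1, with 1 cell, gave no difference. No paired analysis was possible because no cell number is shared between the mice. TPM keeps no depth, so no counting error of a level can be given, and 1 mouse a side leaves the spread between animals unknown.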
